A study of Rattus norvegicus with 8 samples.

Results

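Natriuretic peptide receptors and the enzymes that act on cyclic nucleotides were examined in the rat carotid artery after intimal injury. The 10 genes, taken by their symbols from 37209 genes in the deposited count table, are the receptors Npr1, Npr2 and Npr3, the ligand gene Nppc, the cGMP-dependent kinase gene Prkg1, the phosphodiesterase genes Pde5a, Pde3a, Pde1a and Pde1c, and the inducible nitric oxide synthase gene Nos2. All 10 symbols were found, and 8 had enough counts for a test. mRNA was sequenced from 4 injured left carotid arteries, stretched with a balloon catheter and harvested 2 weeks later, and from 4 undamaged right carotid arteries that served as contralateral controls. All animals were male Sprague-Dawley (SD) rats of 400 g on average, operated under isoflurane, and the labels give no genetic change, drug or age. The right artery is called the self-control, but which injured and control libraries share a rat, and whether a library is 1 animal, is not stated, so p-values measure the spread between these libraries only.

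Cyclic GMP is a second messenger that relaxes vascular smooth muscle. It is made by receptor guanylyl cyclases, which bind natriuretic peptides, and by the soluble guanylyl cyclase, which senses nitric oxide. It acts mainly through cGMP-dependent protein kinase, and phosphodiesterases end the signal by hydrolysis. In the vessel wall these genes are best known from smooth muscle cells and endothelial cells, and some of these phosphodiesterases also hydrolyze cyclic AMP.

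The libraries held 11459632 to 16658089 counts, and the smallest level that they could show, 3 counts, was 0.168 to 0.246 CPM (counts relative to library size, scaled with TMM factors), a floor that covers counting error only. All 10 markers of contractile smooth muscle had more than 3 counts in every library. One protocol field of the labels names a brain region, and among 6 brain neuron markers no library held over 2 counts of Gad2 or Neurod6. The other 4 were Slc17a7 with at most 8 counts, Gad1 with at most 27, Rbfox3 with at most 34 and Camk2a with 284 in control artery 4, and the 6 summed to 1.09 to 22.7 CPM. Control artery 4 stood apart, as its log2 CPM correlated across genes with the other controls at 0.83 to 0.852, whereas those controls correlated with each other at 0.976 to 0.978. Its 8 sympathetic neuron markers summed to 10165 CPM, against 2938 CPM in injured artery 3, 191 CPM in injured artery 1 and 5.73 to 9.49 CPM in the other 5 arteries. Its 10 contractile smooth muscle markers summed to 18828 CPM, against 40667 to 54584 CPM in the other controls and 11506 to 18102 CPM in the injured arteries. The results are therefore also given without control artery 4, and without control artery 4 and injured artery 3 together. Each artery was left out in turn, but these 2 choices were singled out after the data were seen. Control artery 4 was the lowest control for Npr1, Prkg1, Pde5a, Pde3a and Pde1a, so leaving it out enlarges their falls. The part of these markers in any gene's level was not tested, and in whole arteries fewer cells of a type and less RNA per cell cannot be told apart.

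In the injured arteries, Pde1c rose 4.82-fold, whereas Npr1 fell by 1.11 and Pde5a by 1.36 on the log2 scale. The other 5 tested genes did not pass the test, edgeR's quasi-likelihood test over 14359 genes. A gene was called where its Benjamini-Hochberg adjusted p (the FDR) was below 0.05 and its fold change exceeded 2. Thus 1 of 8 tested genes was called higher, against 8.31% of all tested genes, and 2 of 8 were called lower, against 2.57% of all tested genes (10.9% were called in either direction). The median log2 fold change of the 8 genes was -0.41, and that of all tested genes was -0.06. In the plot of levels by artery, the injured arteries lay above every control for Pde1c and below every control for Npr1 and Npr2. Such separation upward was seen for 14.2% and downward for 9.51% of all tested genes.

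**Figure D1:**
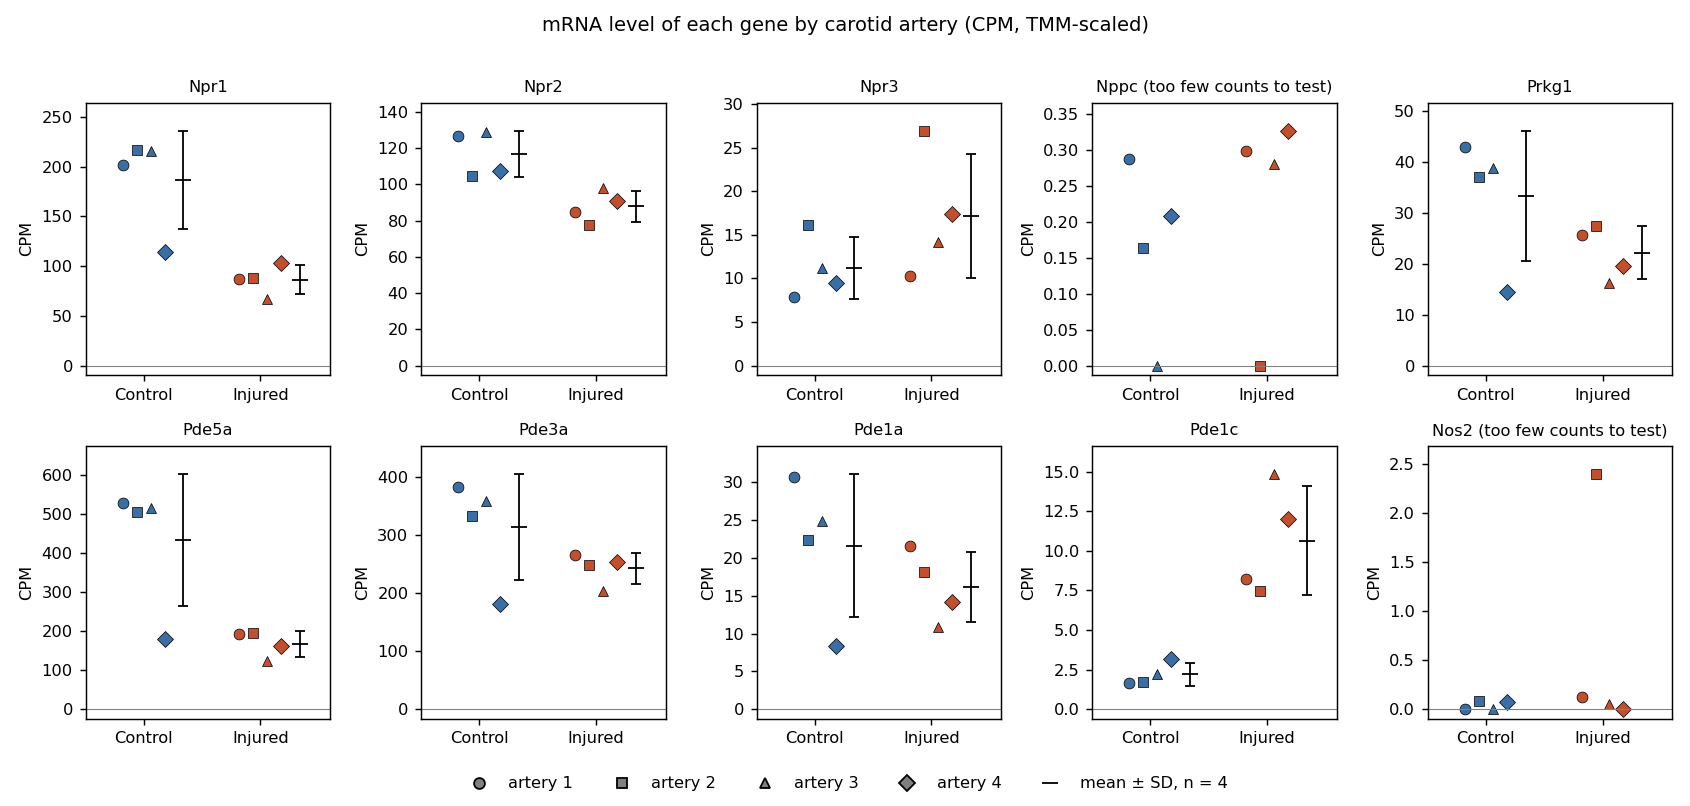
Level of each of the 10 genes in CPM on a linear axis in the 4 control (blue) and 4 injured (red) arteries, with the mean and SD (n = 4) for the 8 tested genes. Control artery 4 lies among or below the injured arteries for Pde5a, Prkg1, Pde3a and Pde1a, and Pde1c is above every control in all 4 injured arteries.

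Sequences before the start sites of the genes that fell are shown because Npr1 and Pde5a were lower together. In the RefSeq table of the GRCr8 build, 8 of the 10 genes had an entry. The 250 bases before the start were searched on both strands for the cAMP response element TGACGTCA, for the GC box GGGCGG and for the CArG box of smooth muscle genes. The cAMP response element was in 0 of the 8 and in 1.59% of all 33469 entries, the CArG box in 0 of the 8 and in 1.5% of all, and the GC box in 3 of the 8 (Npr1, Pde5a and Nppc) and in 30.5% of all. Capitals mark the GC box, which Npr1 holds on the opposite strand and Pde5a holds in 2 copies that do not overlap. A match is a description of these letters and not a site. The Npr1 stretch is chr2:178247127-178247156 on the minus strand, 68 to 39 bases before the start, and the Pde5a stretch is chr2:213543855-213543884 on the plus strand, 171 to 142 bases before the start.
Npr1: cccgtcccccccCCGCCCgcctccggaacg
Pde5a: aaGGGCGGgagggaggcggccgGGGCGGac

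Npr1 encodes the receptor of atrial and brain natriuretic peptides, which makes cGMP inside the cell when a peptide binds outside. The 4 controls held 201, 217, 215 and 114 CPM of Npr1, and the 4 injured arteries held 86.8, 88.6, 66.9 and 103 CPM. Even control artery 4, the lowest of its group, stayed above every injured artery. The mean fell to 86.3 ± 14.7 CPM in the injured arteries from 187 ± 49.1 CPM in the controls (SD, n = 4 each), which was -1.11 on the log2 scale (standard error, SE, 0.23, adjusted p = 0.0137 in edgeR's test). Npr1 was called in all 8 fits that left out an artery in turn, and without control artery 4 its log2 fold change was -1.30 (adjusted p = 0.000612 in edgeR's test). It was not called with library totals only, where the adjusted p was 0.0183 but the log2 fold change was -0.93. Nor was it called with the replicate number as a block (-1.09, adjusted p = 0.0728 in edgeR's test).

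Npr2 encodes the receptor of C-type natriuretic peptide. Its level was 127, 105, 129 and 107 CPM in the controls and 84.8, 77.5, 98.2 and 90.9 CPM in the injured arteries. Although the groups did not overlap, the log2 fold change was -0.41 (SE 0.12, 95% interval -0.69 to -0.13, adjusted p = 0.0516 in edgeR's test). With control artery 4 left out the adjusted p was 0.0218 in edgeR's test, with a log2 fold change of -0.46 that was still within a factor of 2.

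Npr3 encodes the clearance receptor, which binds all natriuretic peptides, has no guanylyl cyclase domain and removes the peptides from the tissue. The controls held 7.92, 16.1, 11.2 and 9.52 CPM and the injured arteries 10.2, 26.9, 14.2 and 17.4 CPM. Injured artery 2 was the highest, injured artery 1 lay within the control range, and the groups overlapped. The log2 fold change of 0.62 (SE 0.33, 95% interval -0.15 to 1.39) did not pass edgeR's test (adjusted p = 0.25), and it ranged from 0.32 to 0.84 when an artery was left out.

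Because a ratio of 2 genes within an artery does not depend on how the library was scaled, the balance of the receptors was compared as a log2 ratio. The absolute ratio also holds the lengths of both genes, so only its difference between groups was read. In the controls, the log2 ratio of Npr3 to Npr1 was -4.66, -3.75, -4.27 and -3.57, and in the injured arteries it was -3.08, -1.72, -2.23 and -2.56. Every injured artery was thus above every control. The means differed by 1.67 on the log2 scale, from -4.06 ± 0.50 (SD, n = 4) to -2.40 ± 0.57 (SD, n = 4), in an exact two-sided permutation test with p = 0.0286, the smallest that 4 against 4 arteries can give, and p = 0.0762 after adjustment over the 8 ratios compared, of which 0 were under 0.05 after adjustment. With 7 arteries this ratio missed 0.05 when control artery 1 or control artery 3 was left out, although its difference stayed at 1.44 or more. For Npr3 to Npr2 the groups overlapped, with a difference of 0.99 (exact permutation p = 0.0857, adjusted over the 8 ratios p = 0.114).

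**Figure D2:**
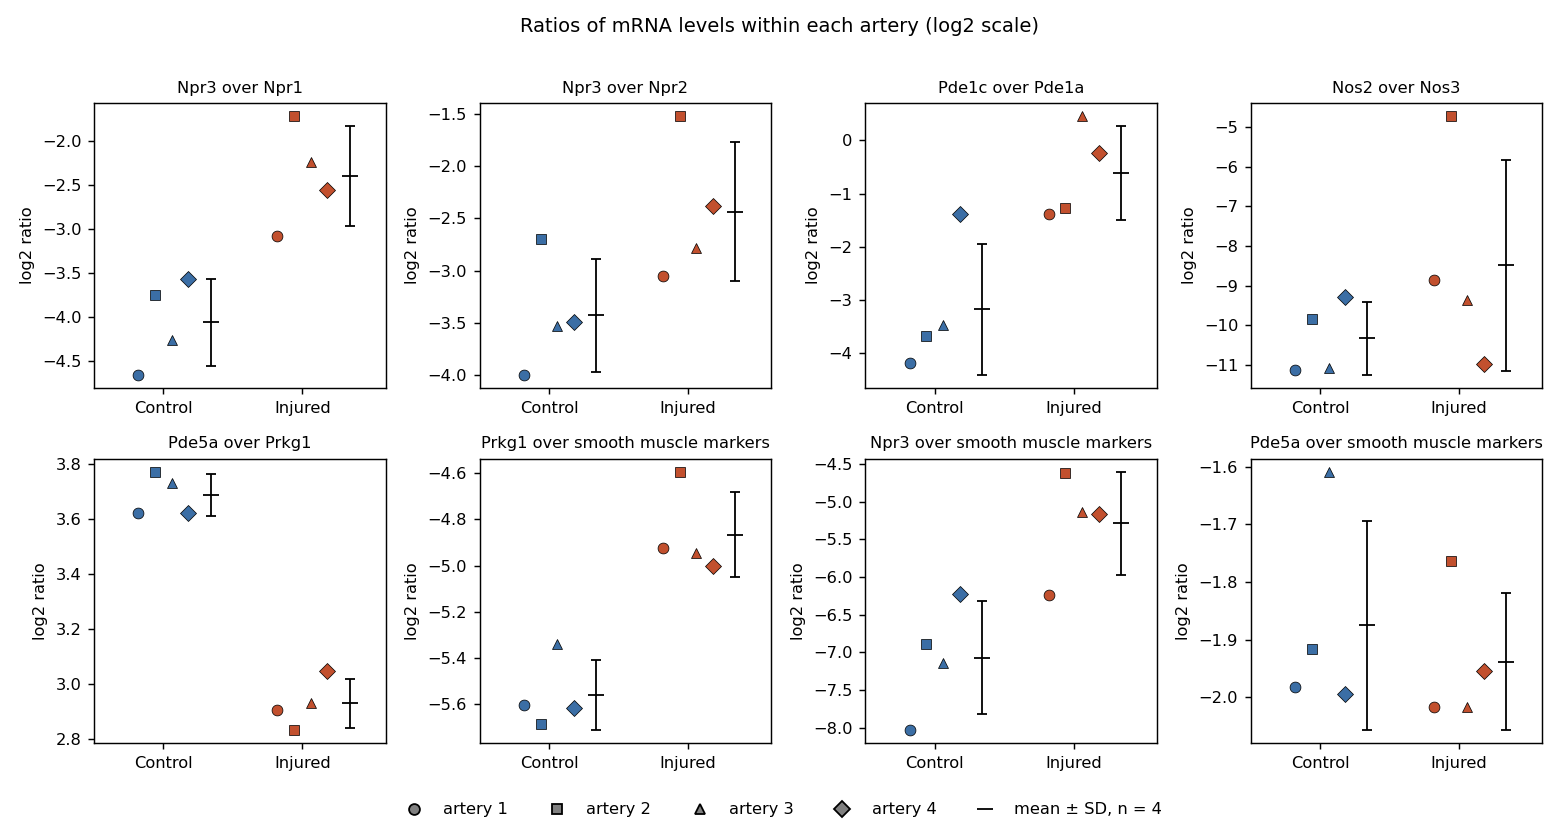
Log2 ratio of mRNA levels within each artery (axes not from 0), with the mean and SD (n = 4) of the 4 control (blue) and 4 injured (red) arteries. Smooth muscle markers stand for the mean log2 level of 10 contractile genes. The groups are apart for Npr3 over Npr1, Pde5a over Prkg1 and Prkg1 over smooth muscle markers, and they overlap in the other 5 panels.

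Nppc, which encodes C-type natriuretic peptide, had 4, 2, 0 and 3 counts in the controls and 5, 0, 5 and 4 counts in the injured arteries, and no difference was detectable at this depth. Nppa and Nppb, which encode atrial and brain natriuretic peptide, each had 1 count in control artery 4 and 0 in all other libraries. Corin, which encodes a protease known for activating the precursor of atrial natriuretic peptide, was in contrast well expressed and fell. It had 120, 142, 170 and 72.7 CPM in the controls and 24.3, 49.3, 42.7 and 53.5 CPM in the injured arteries, without overlap. Its log2 fold change was -1.57 (SE 0.32, adjusted p = 0.0127 in edgeR's test), and it was -1.76 without control artery 4. Mme, which encodes neprilysin, a protease that degrades natriuretic peptides, differed by 0.61 on the log2 scale (adjusted p = 0.427 in edgeR's test).

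Prkg1 encodes the cGMP-dependent protein kinase of smooth muscle, through which cGMP lowers calcium and relaxes the cell. Its level in the controls was 42.9, 37.0, 38.8 and 14.5 CPM, and in the injured arteries it was 25.6, 27.3, 16.2 and 19.5 CPM. Control artery 4 had the lowest value of all 8, whereas the other 3 controls were above every injured artery. With all arteries the log2 fold change was -0.59 (SE 0.33, 95% interval -1.36 to 0.18, adjusted p = 0.276 in edgeR's test). Without control artery 4 it was -0.84 (adjusted p = 0.0121 in edgeR's test), and without control artery 4 and injured artery 3 it was -0.71 (adjusted p = 0.00727 in edgeR's test), each within a factor of 2 and so not called.

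Pde5a encodes the phosphodiesterase that is specific for cGMP and is the target of sildenafil. The controls held 529, 505, 516 and 179 CPM, and the injured arteries held 192, 195, 123 and 161 CPM. Control artery 4 lay within the range of the injured arteries, and the other 3 controls were far above it. The mean fell to 168 ± 33.3 CPM in the injured arteries from 432 ± 169 CPM in the controls (SD, n = 4 each), which was -1.36 on the log2 scale (SE 0.34, adjusted p = 0.0297 in edgeR's test). The call depended on the libraries, since leaving out any artery but control artery 4 ended it, with adjusted p from 0.0645 to 0.0936 in edgeR's test and a log2 fold change from -1.44 to -1.25. When that artery was left out the log2 fold change was -1.63 (adjusted p = 0.000437 in edgeR's test), and without injured artery 3 as well it was -1.50 (adjusted p = 9.49e-05). With the replicate number as a block Pde5a was not called (-1.27, adjusted p = 0.0811 in edgeR's test).

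The ratio of Pde5a to Prkg1 had the least spread of all ratios compared. It was 3.62, 3.77, 3.73 and 3.62 on the log2 scale in the controls, and control artery 4 was like its group here. In the injured arteries it was 2.90, 2.83, 2.93 and 3.05, below every control. The means of 3.69 ± 0.08 (SD, n = 4) and 2.93 ± 0.09 (SD, n = 4) differed by -0.76, a factor of 1.69 (exact permutation p = 0.0286, adjusted over the 8 ratios p = 0.0762). The difference ranged from -0.80 to -0.73 with an artery left out.

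**Figure D3:**
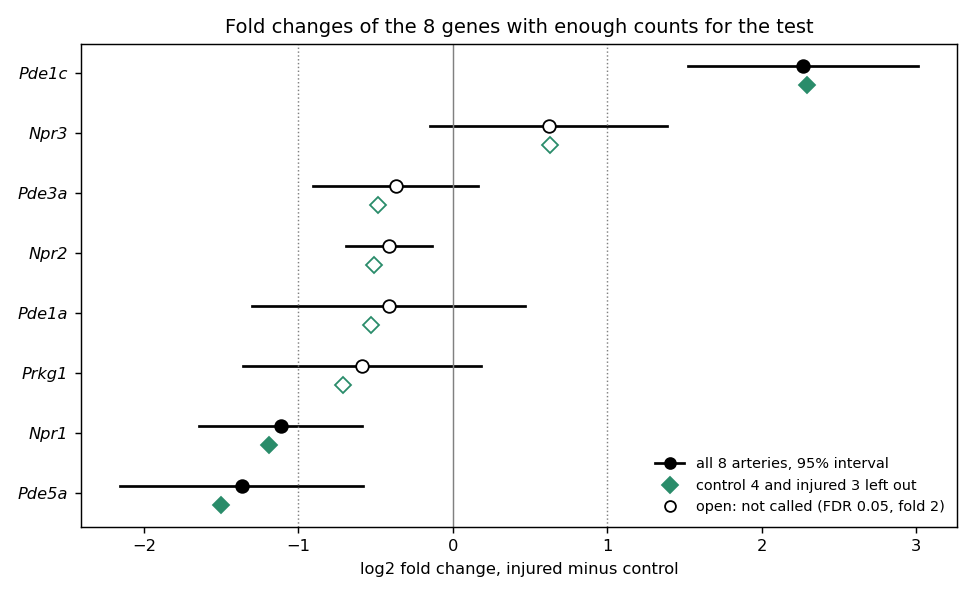
Log2 fold change (injured minus control) of the 8 tested genes with all 8 arteries (circles, with 95% intervals) and with control artery 4 and injured artery 3 left out (diamonds), filled where called. Dotted lines mark a fold change of 2. Pde1c is called higher and Npr1 and Pde5a lower in both fits, and the intervals of Npr3, Pde3a, Pde1a and Prkg1 include 0.

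Pde3a encodes a phosphodiesterase that hydrolyzes cAMP and is inhibited by cGMP. It had 383, 333, 359 and 181 CPM in the controls and 266, 248, 205 and 255 CPM in the injured arteries. Control artery 4 was again the lowest of all 8, and the other 3 controls lay above every injured artery. The log2 fold change was -0.37 (SE 0.23, adjusted p = 0.326 in edgeR's test) with all arteries and -0.56 (adjusted p = 0.00842 in edgeR's test) without control artery 4.

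Pde1a and Pde1c encode phosphodiesterases that calcium and calmodulin switch on, and Pde1c is known from proliferating smooth muscle cells. Pde1a had 30.8, 22.4, 24.9 and 8.41 CPM in the controls and 21.5, 18.2, 10.8 and 14.2 CPM in the injured arteries, which was -0.41 on the log2 scale (SE 0.39, adjusted p = 0.508 in edgeR's test). Pde1c was low in every control, at 1.66, 1.72, 2.22 and 3.20 CPM, and reached 8.19, 7.47, 14.8 and 12.03 CPM in the injured arteries. The lowest injured artery was thus above the highest control. Its mean rose to 10.6 ± 3.44 CPM in the injured arteries from 2.20 ± 0.711 CPM in the controls (SD, n = 4 each), which was 2.27 on the log2 scale (SE 0.32, adjusted p = 0.00288 in edgeR's test). The highest value in each group belonged to the library with the most sympathetic neuron marker RNA, control artery 4 and injured artery 3. Without these 2 libraries the log2 fold change was 2.30 (SE 0.29, adjusted p = 0.000819 in edgeR's test), and it stayed between 2.06 and 2.50, and called, in all 8 fits that left out an artery.

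The ratio of Pde1c to Pde1a was -4.19, -3.67, -3.47 and -1.39 on the log2 scale in the controls and -1.39, -1.28, 0.45 and -0.24 in the injured arteries. Control artery 4 and injured artery 1 met at nearly the same value, and the other arteries were apart. The difference of 2.56 had an exact permutation p of 0.0571 (adjusted over the 8 ratios p = 0.0914), and without control artery 4 it was 3.16 with an exact permutation p of 0.0286, as low as 4 against 3 arteries can give.

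Nos2 encodes the inducible nitric oxide synthase, which activated macrophages and smooth muscle cells can make. It had 0, 1, 0 and 1 counts in the controls and 2, 33, 1 and 0 counts in the injured arteries. Of the 36 counts after injury 33 were from injured artery 2, at 2.39 CPM, and the other 3 injured arteries were at or below the floor of 3 counts, as the controls were. Injured artery 2 also had the highest summed CPM of the 10 macrophage markers, 2740 against 1857 to 2242 in the other injured arteries and 224 to 329 in the controls, and of the 4 neutrophil markers, 23.1 against 6.87 to 10.2 and 1.66 to 5.91. Single markers did not all follow these sums. Lyz2 had the most counts of the macrophage list in injured artery 2, at 24195. Relative to library size, Emr1, C1qb, C1qc, Mrc1 and Cd163 were higher in injured artery 1. Of the neutrophil list, Mpo had 0 counts in injured artery 2 and 6, 60, 26 and 70 counts in the controls. The part of these markers in the level of Nos2 was not tested. With no filter on low counts Nos2 was not called (adjusted p = 0.222 in edgeR's test), nor was it with DESeq2 (adjusted p = 0.113). The ratio of Nos2 to Nos3 had a difference of 1.85 (exact permutation p = 0.171, adjusted over the 8 ratios p = 0.196), and it ranged from 0.60 to 2.68 with an artery left out, the lowest without injured artery 2.

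Most of these genes are known from smooth muscle, whose contractile markers fell in the same arteries (7 of 10 called lower, 0 higher). Other cell type markers differed too. Of the 9 endothelial markers 3 were called higher and 1 lower, with sums of 848 to 1193 CPM in the injured arteries and 889 to 2334 CPM in the controls. Of the 9 skeletal muscle markers 7 were called higher, with sums of 308 to 1129 CPM against 84.6 to 253 CPM, and their part in the levels of the 10 genes was not tested. Levels were therefore also set against the mean log2 level of the 10 markers within each artery. Relative to them, the log2 level of Prkg1 was -4.87 ± 0.18 (SD, n = 4) in the injured arteries and -5.56 ± 0.15 (SD, n = 4) in the controls, without overlap. The difference was 0.70 (exact permutation p = 0.0286, adjusted over the 8 ratios p = 0.0762). For Pde5a the groups overlapped, with -1.94 ± 0.12 (SD, n = 4) against -1.88 ± 0.18 (SD, n = 4), a difference of -0.06 (exact permutation p = 0.571, also after adjustment) that turned to 0.03 without control artery 3. Npr3 differed by 1.78 (exact permutation p = 0.0571, adjusted over the 8 ratios p = 0.0914), and the groups overlapped through control artery 4 and injured artery 1. The remaining genes were added after their values were seen and were not tested. Among them the difference was 0.12 for Npr1, 0.79 for Npr2, 0.88 for Pde3a, 0.89 for Pde1a and 3.45 for Pde1c, and the groups did not overlap for Pde3a, Pde1a and Pde1c. As the markers themselves fell, a positive difference does not mean that a gene rose. The log2 fold changes of Npr1, Npr2, Prkg1, Pde3a and Pde1a were -1.11, -0.41, -0.59, -0.37 and -0.41, whereas those of Npr3 and Pde1c were 0.62 and 2.27.

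With all arteries, 2 of 8 genes were lower at the FDR alone, against 918 of 14359 tested genes. Leaving out the library that stood apart changed this number, while the number called lower at both criteria stayed at 2. Without control artery 4, Npr1, Npr2, Prkg1, Pde5a and Pde3a, 5 of 8, were lower at the FDR alone, against 12.9% of all genes tested there. Of these, Npr1 and Pde5a also passed the fold change, against 3.94% of all genes. Without control artery 4 and injured artery 3 those 5 were again lower at the FDR alone, against 15.9%, and Npr1 and Pde5a at both criteria, against 4.68%. In both fits Pde1c was called higher, 1 of 8 against 12.3% of all genes without control artery 4 and 12.5% without both libraries, a share near the background.

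Among other genes of nitric oxide, cGMP and cAMP signaling, 75 were listed and 62 had enough counts for edgeR's test. Of these, 12 were called lower, against 2.57% of all tested genes, and 1 was called higher, against 8.31% of all tested genes. Their median log2 fold change was -0.40, and that of all tested genes was -0.06. Without control artery 4 and injured artery 3 the numbers were 13 lower, against 4.68% of all genes, and 7 higher, against 12.5% of all genes, with a median of -0.19.

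Nitric oxide reaches cGMP through the soluble guanylyl cyclase, a dimer of an alpha and a beta subunit. The beta subunit gene Gucy1b1, listed by its former symbol Gucy1b3, fell in the injured arteries. It had 82.3, 81.6, 91.8 and 153 CPM in the controls, the highest in control artery 4, and 41.3, 34.6, 52.1 and 32.2 CPM in the injured arteries. The log2 fold change was -1.35 (SE 0.25, adjusted p = 0.00892 in edgeR's test), and without control artery 4 it was -1.09 (adjusted p = 0.00266). The alpha subunit gene Gucy1a1, listed as Gucy1a3, was lower without overlap too, at 135 ± 20.2 CPM against 212 ± 24.2 CPM (SD, n = 4 each), but the difference of -0.65 on the log2 scale (adjusted p = 0.019 in edgeR's test) was within a factor of 2.

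The neuronal nitric oxide synthase gene Nos1 fell from 13.1 ± 6.22 CPM to 3.60 ± 2.19 CPM (SD, n = 4 each), which was -1.87 on the log2 scale (SE 0.48, adjusted p = 0.0331 in edgeR's test). Injured artery 4, at 6.87 CPM, was above control artery 4, at 6.53 CPM. The endothelial synthase gene Nos3 had 80.3, 112, 75.5 and 65.1 CPM in the controls and 69.7, 64.4, 55.7 and 82.3 CPM in the injured arteries. The groups overlapped, with a log2 fold change of -0.29 (95% interval -0.73 to 0.15, adjusted p = 0.348 in edgeR's test). Arg1 encodes arginase 1, which competes with the synthases for arginine and is made by some macrophages. It was the 1 gene of the list called higher, with 2.04 ± 0.878 CPM in the controls and 8.43 ± 4.33 CPM in the injured arteries (SD, n = 4 each), which was 2.05 on the log2 scale (SE 0.51, adjusted p = 0.0279 in edgeR's test). The macrophage markers rose in the same arteries (9 of 10 called higher), and their part in Arg1 was not tested.

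Downstream of cGMP, 9 of 10 listed genes were tested. Of these, 0 were called higher, against 8.31% of all tested genes, and 5 were called lower, against 2.57%. They were Kcnmb1 and Kcnma1, the subunits of the large-conductance calcium-activated potassium channel, Hspb6, a small heat shock protein that cyclic nucleotide kinases phosphorylate, Itpr1, an inositol trisphosphate receptor of the calcium store, and Ppp1r12a, the targeting subunit of myosin phosphatase. Kcnma1 was at 94.6, 73.5, 100 and 94.4 CPM in the controls and 48.6, 33.7, 43.7 and 36.9 CPM in the injured arteries, where control artery 4 was like its group. Its log2 fold change was -1.15 (SE 0.15, adjusted p = 0.00214 in edgeR's test). Kcnmb1 had the largest change of the 5, which was -1.53 on the log2 scale (SE 0.30, adjusted p = 0.0115 in edgeR's test). Hspb6, Itpr1 and Ppp1r12a had log2 fold changes of -1.46, -1.08 and -1.01. Irag1, which encodes the kinase's partner at the calcium store and is listed as Mrvi1, had -0.82 (adjusted p = 0.126 in edgeR's test). Without control artery 4 it had -1.08 (adjusted p = 0.00211 in edgeR's test). Without injured artery 3 as well it had -0.96 (adjusted p = 0.000722 in edgeR's test), within a factor of 2 and so not called. Prkg2, the second cGMP kinase gene, had 110 CPM in control artery 4 and 17.9 CPM in injured artery 3, the libraries with the most sympathetic neuron marker RNA, and at most 0.718 CPM in the other 6 arteries.

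On the cAMP side, Adcy5, an adenylyl cyclase gene, fell without overlap from 648 ± 197 CPM to 251 ± 43.7 CPM (SD, n = 4 each), which was -1.37 on the log2 scale (SE 0.26, adjusted p = 0.00962 in edgeR's test). The 3 effector genes called lower were Rapgef4, an exchange factor that cAMP activates, with -1.20, Pkia, an inhibitor of protein kinase A, with -1.14, and Prkar2b, a regulatory subunit of that kinase, with -1.06. With control artery 4 left out the changes of Pkia and Prkar2b were both -0.95 and within a factor of 2, and without injured artery 3 as well both were called again (-1.07 and -1.08), whereas Rapgef4, at -0.95, was not. Of the 14 other phosphodiesterase genes tested, 0 were called by edgeR's test, and at the FDR alone Pde7b was higher (log2 fold change 0.63) and Pde1b lower (-0.99), both named after their values were seen. With control artery 4 left out, 3 were called higher, against 12.3% of all genes, Pde2a (log2 fold change 1.80), Pde8b (2.86) and Pde9a (1.04). Injured artery 3 was the highest injured artery for each of them. Without injured artery 3 as well, 3 were called higher, against 12.5% of all genes, Pde2a (1.58), Pde8b (2.20) and Pde7a (1.00). In that fit Pde9a, at 0.78, was not called, and Pde1b was called lower (-1.01), 1 gene against 4.68% of all genes. The 2 genes of cyclic nucleotide export had log2 fold changes of 0.18 and 0.19 and were not called.

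**Figure D4:**
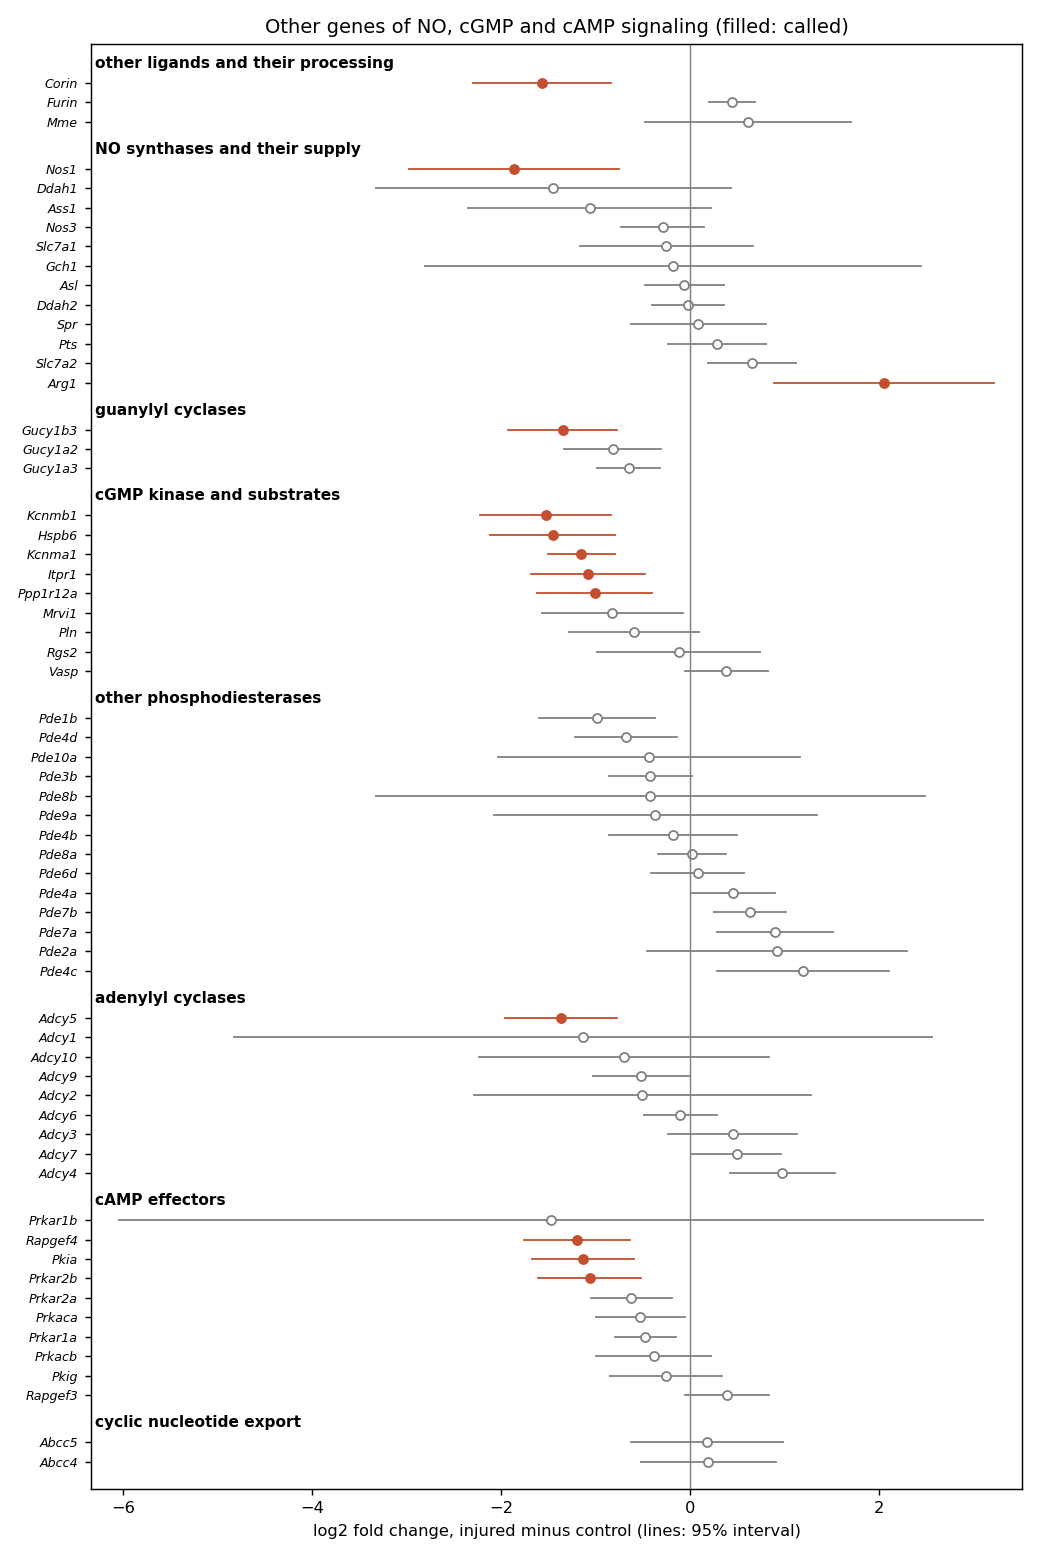
Log2 fold change (injured minus control, n = 4 each) with its 95% interval for the 62 tested genes of the wider list, grouped by role and named as in the count table. Filled red points are the 13 called genes, of which 12 lie to the left of 0 and Arg1 to the right.

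The genes whose levels followed Pde1c and Pde5a most closely were looked up across the 8 arteries. For Pde1c these were Cenpa, a centromere histone gene, with Pearson's r of 0.994, Rps6ka1, a protein kinase gene, with 0.981, and Cd7, a lymphocyte surface protein gene, with 0.981. For Pde5a they were LOC686753 with 0.997, Kank1 with 0.997 and Zfp518b with 0.993. All 8 points share the injury contrast, and those for Pde5a also the low value of control artery 4, so these correlations are a description. Cenpa averaged 0.125 CPM in the controls, under the floor, and Cd7 averaged 0.251 CPM there, near the floor. Kank1 had a log2 fold change of -1.02 and Zfp518b of -0.29.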

How the data were processed

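Raw counts per gene symbol for 8 carotid artery libraries were deposited by the authors without normalization. The submitters' processing notes name HISAT2 2.0.4. The counting tool, genome build and strand setting are not given in the sources used here, so genes that share reads with a near-identical copy, overlapping genes and antisense genes are uncertain. The authors used DESeq with a fold change above 2 and an FDR under 0.05. Each column name matched the description label of 1 artery.

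Low genes were removed with filterByExpr of edgeR 4.0.16 (R 4.3.3), which left 14359 of 37209 genes, and glmQLFTest with TMM factors compared 4 injured with 4 control arteries without a covariate. CPM values use the TMM factors. Standard errors and 95% intervals come from the F statistic. Log2 ratios used CPM with a prior of 0.5 counts per library and exact two-sided permutation tests over all 70 assignments of 4 of 8 arteries, adjusted over 8 ratios (Benjamini-Hochberg). The fits were tested on simulated data in which 200 genes were changed 4-fold. The main edgeR fit called 66% of them and 7 unchanged genes. With the replicate block it called 44.5% and 8, and DESeq2 called 86% and 52.

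Alternatives were DESeq2 1.42.0, RLE factors, library totals only, no filter on counts, a minimum of 10 counts in all libraries, the replicate number as a block, each artery left out, the FDR alone, a prior of 2 counts for ratios and, added after seeing the data, control artery 4 and injured artery 3 left out. Genes named are the 10 genes, called genes and fixed genes of a list of 75, and the 3 genes most correlated with the called gene of largest rise and that of largest fall. The genes, lists and ratios were chosen with earlier results of these data known. Promoter stretches and their coordinates come from the RefSeq table of the GRCr8 build and were matched by gene symbol alone, since the build of the counts is not given in the sources used here.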

Additional observations from a re-analysis of the deposited data

Results flagged for a closer look

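Among 36 groups of 4 arteries examined, the 10 genes and the 8 ratios in each group, 4 held an artery whose gap to the nearest other artery, divided by the whole range of the group, was above Dixon's 95% critical value for 4 samples. Chance gives about 1 in 20, or 1.8 of 36.

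Control artery 4 was far below the other controls for Pde5a, with 179 CPM against 505 CPM in the nearest control (ratio 0.934), and for Npr1, with 114 CPM against 201 CPM (ratio 0.852). The same artery was in its group's range for the ratio of Pde5a to Prkg1, at 3.62 on the log2 scale against 3.62 to 3.77 in the other controls. Its contractile smooth muscle markers summed to 18828 CPM and its sympathetic neuron markers to 10165 CPM, and their part in these values was not tested.

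Injured artery 2 stood apart for both genes with few counts. It had 33 counts of Nos2, at 2.39 CPM against 0.12 CPM in the nearest injured artery (ratio 0.95). It had 0 counts of Nppc against 4 or 5 in the other injured arteries (ratio 0.858). The Nppc counts, and the Nos2 counts of the other injured arteries, were near or below the floor of 3 counts, whereas the 33 counts of Nos2 were above it.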

How the results depend on the processing

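Pde1c was called in every alternative run. Npr1 was no longer called with library totals only (log2 fold change -0.93), a scaling that moved the median of all genes from -0.06 to 0.12, where 1 gene of the 10 was called lower, nor with the replicate block (-1.09, adjusted p = 0.0728 in edgeR's test). Pde5a was not called with the replicate block either (-1.27, adjusted p = 0.0811), so that 1 of the 10 genes was called there and 0 lower. Of the wider list 7 were called there, and Nos1, Ppp1r12a, Itpr1, Kcnmb1, Adcy5 and Prkar2b no longer were. Same-numbered arteries deviated from their group means with correlations of 0.301, 0.45, -0.52 and -0.416. Injured arteries 1 and 2 correlated best with the control of the same number. Injured artery 3 correlated best with control artery 4 (0.784) and injured artery 4 with control artery 3 (0.379). Control artery 4 and injured artery 3 hold the most sympathetic neuron marker RNA, so these correlations cannot decide whether the numbers are pairs. The fit without pairs was kept as the main one.

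With an artery left out, 2 to 3 of the 10 genes were called, 1 higher and 1 to 2 lower, 8 (without injured artery 2) to 17 (without control artery 4) of the wider list, and 1142 to 2398 (without control artery 4) of all genes. Pde5a ranged from -1.63 to -1.25. The difference in the log2 ratio ranged from 1.44 to 1.89 for Npr3 to Npr1, from 2.21 to 3.16 for Pde1c to Pde1a, from 1.46 to 2.10 for Npr3 to the smooth muscle markers and from -0.12 to 0.026 (without control artery 3) for Pde5a to them. All genes called numbered 1562, against 1007 with at least 10 counts in every sample, 2468 with the FDR alone, 2151 with DESeq2 and 2473 without control artery 4 and injured artery 3, where 20 genes of the wider list were called. Beyond the fewer genes or libraries in some of these fits, the cause was not tested. Nppc, Nos2, Nppa and Nppb were limited by depth.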

Other observations

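Several listed genes of cyclic nucleotide signaling that the test left uncalled were highest in control artery 4 and injured artery 3, and those named here were chosen with their values in view. Prkar1b, a regulatory subunit of protein kinase A, had 335 CPM in control artery 4 and 106 CPM in injured artery 3, against 0.936 to 1.80 CPM in the other controls and 3.92 to 7.36 CPM in the other injured arteries. Adcy1, an adenylyl cyclase gene, had 131 and 46.2 CPM in those 2 libraries. Without both libraries, the log2 fold change was 1.98 for Prkar1b (standard error 0.39, adjusted p = 0.00616 in edgeR's test), 1.54 for Adcy1 (adjusted p = 0.039), and 1.99 for Gch1 (adjusted p = 0.00246), which encodes the entry enzyme of tetrahydrobiopterin synthesis, a cofactor of nitric oxide synthases. Pde2a, a phosphodiesterase that cGMP stimulates, had 1.58 there (adjusted p = 0.00824) against 0.92 with all arteries (adjusted p = 0.343).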
